A study of Mus musculus with 6 samples.

Results

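The transcripts of 10 cysteine and aspartic cathepsins were followed in mouse M2 macrophages (Mφs): Ctsb, Ctsc, Ctsd, Ctse, Ctsf, Ctsh, Ctsk, Ctsl, Ctss and Ctsz. They were chosen by name, as the rows of the deposited table that carry these symbols. They are 10 of the 41549 genes listed and 10 of the 11933 genes that passed a low-count filter. RNA came from bone marrow of wild-type adult C57Bl/6 N mice, differentiated in culture with M-CSF. In both groups the resulting Mφs were transfected before they were polarized by IL-4 and IL-13 into the anti-inflammatory M2 type. The αGlu group received an antisense oligonucleotide against 5′tRF-Glu(CTC), a fragment that is cut off a glutamate tRNA at its 5′ end. The control group, Ctr, received a control antisense. Each group had 3 libraries, and the comparison asks whether the messengers of these proteases differ when the fragment is blocked during M2 polarization.

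Cathepsins are proteases of the endosome and lysosome. They are made as inactive precursors, carried to acidic compartments mostly by mannose 6-phosphate receptors, and activated there at the low pH that the vacuolar H+-ATPase maintains. In Mφs they degrade engulfed and autophagic cargo, trim the invariant chain that guards MHC class II molecules, and, when secreted, act on extracellular matrix. Most members use a catalytic cysteine, whereas Ctsd and Ctse use a pair of aspartates. Cystatins and some serpins inhibit the cysteine type.

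The oligonucleotide and the stretch it was designed against are printed because they define the treatment. Capitals mark the bases of the target that pair with the oligonucleotide, which are bases 2 to 21 counted from 1 at its 5′ end.
antisense oligonucleotide: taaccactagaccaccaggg
target sequence: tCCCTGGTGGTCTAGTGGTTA
In GENCODE M21 transcripts of the 10 members, the longest run of letters shared with the paired stretch of the target was 7 to 9 bases. It was 9 bases in Ctsh and 7 in Ctsc, Ctsd, Ctsk and Ctsl. The median of 21951 protein-coding genes was 8, and 17.4% of them held a run of at least 9.

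Total counts were 17912831 to 30386653 per library. Every pair of libraries differed by more than sampling noise (chi-square per gene of at least 19.8), and all 6 entered as separate samples. One library stands apart from its group. Across the 11933 genes, log2 CPM of αGlu 2 and αGlu 3 correlated at a Pearson r of 0.992. Correlations of αGlu 1 were 0.929 with either of them and 0.966 to 0.982 with Ctr libraries, which correlated with one another at 0.978 to 0.988. For αGlu 2 and 3 against Ctr the range was 0.891 to 0.917. By this measure αGlu 1 lay nearer to Ctr than to αGlu 2 and 3. It was nevertheless nearer to αGlu 2 and 3 than any Ctr library was. The fragment itself is not measured by mRNA libraries, and whether it was blocked to a like degree in each αGlu library was not tested. The correlations are taken across genes and so not over independent replicates. Each test of a cathepsin is therefore given for all 6 libraries and also without αGlu 1. The choice of αGlu 1 came from these same data and leaves only αGlu 2 and 3. Adjusted p-values without αGlu 1 thus describe the remaining libraries and are not error rates for the comparison of the groups. All 7 macrophage markers examined, such as Csf1r and Adgre1, were above 1 CPM, and their summed level was 11820 to 13380 CPM in Ctr and 12580 to 18540 CPM in αGlu. Summed markers of dendritic cells, fibroblasts, lymphocytes and mast cells were at most 7.18 CPM in any library. The labels gave no batch or date.

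These Mφs devoted a large part of their mRNA to cathepsins. On the deposited TPM scale, which corrects for gene length, the 10 members together took 5.99%, 6.77% and 6.70% of all transcripts in Ctr 1, 2 and 3. Ctss ranked 2 among all genes by mean TPM, Ctsd 8, Ctsb 13 and Ctsz 20. Ctsl ranked 93, Ctsh 489, Ctsk 659 and Ctsc 1030, while Ctsf and Ctse lay at 9584 and 9887. Mean levels in Ctr ran from 32290 TPM ± 4559 (SD, n = 3) for Ctss to 3.06 TPM ± 0.969 for Ctse. In that order Ctsk and Ctsh overlapped, at 191.1 to 362.2 TPM and 213.6 to 270.4 TPM. Ctsf and Ctse also overlapped, and the other neighbours in the order were separated in every Ctr library. In αGlu, Ctsd (6131 to 18050 TPM) overlapped Ctsb (6231 to 10230 TPM), which it exceeded in every Ctr library. Ctsh lay above Ctsk in αGlu without overlap, at 289.6 to 346.8 TPM and 106.3 to 199.6 TPM. Ctsc moved above Ctsk, and Ctse above Ctsf, by mean TPM in αGlu, but the ranges of each pair overlapped.

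**Figure D1:**
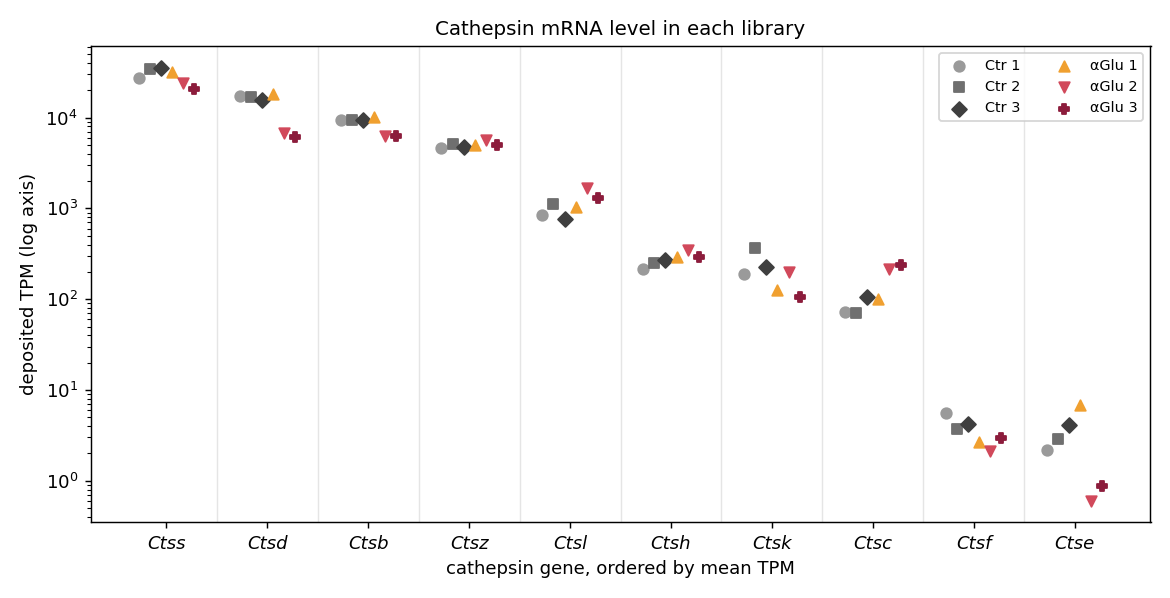
Deposited TPM of each cathepsin gene (log axis) in the 3 Ctr libraries (grey) and the 3 αGlu libraries (coloured), with genes ordered by mean TPM. Levels span from 35630 TPM for Ctss in Ctr 3 to 0.604 TPM for Ctse in αGlu 2, and for Ctsd the αGlu 1 library (18050 TPM) lies with Ctr while αGlu 2 and 3 lie at 6831 and 6131 TPM.

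With all 6 libraries, edgeR's quasi-likelihood test called 0 of the 10 members at an adjusted p under 0.1. The background was 0% of the 11933 genes, with a smallest adjusted p of 0.149. At an unadjusted p under 0.05 there were 3 members, Ctsc on the higher side and Ctsf and Ctsk on the lower, against 24.7% of all genes (12.7% higher and 11.9% lower). The same 3 genes were called by DESeq2, which called 15.9% of all genes it tested (7.77% higher and 8.13% lower, or 8.16% with an absolute log2 fold change above 1). Limma-voom called 0 members and 0% of genes, and edgeR with the replicate number as a block 0 members and 0.142% of genes. Groups did not overlap for 1 member, Ctsf, which is lower in αGlu, while 30.2% of all genes showed no overlap (14.2% higher and 15.9% lower). The members' median log2 fold change, αGlu over Ctr, was -0.32, and that of all genes tested was 0.02. In bulk RNA, fewer cells of a type and less RNA per cell cannot be told apart.

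Without αGlu 1, the quasi-likelihood test called 7 of the 10 members. Ctsc and Ctsl were higher, and Ctsb, Ctsd, Ctse, Ctsf and Ctss were lower. This is read against a background of 49.1% of the 12340 genes then tested, 23.5% higher and 25.6% lower. Both αGlu 2 and αGlu 3 lay on one side of the whole Ctr range for these same 7 members and for 65.8% of all genes. αGlu 1 lay above the Ctr range for Ctsb, Ctsd, Ctse and Ctsh, below it for Ctsf and Ctsk, and within it for Ctsc, Ctsl, Ctss and Ctsz. Over all genes it lay outside the Ctr range for 57.4%. Thus αGlu 1 was on the opposite side of the Ctr range from αGlu 2 and 3 for Ctsb, Ctsd and Ctse.

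**Figure D2:**
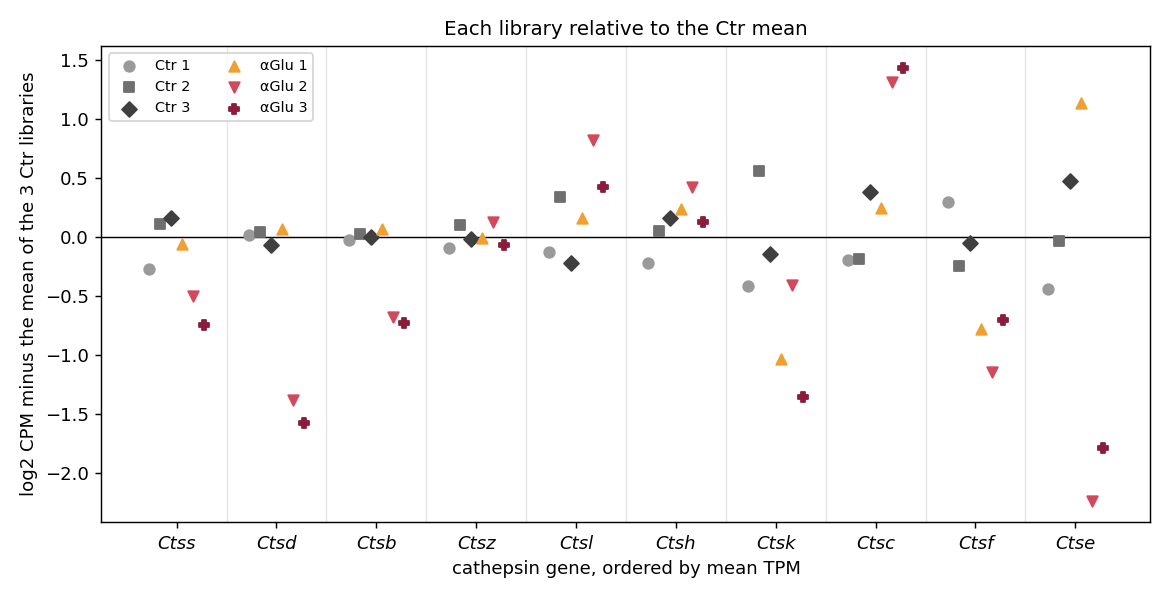
Level of each cathepsin gene in each library, as log2 CPM minus the mean log2 CPM of the 3 Ctr libraries, with Ctr in grey and αGlu coloured. For Ctsd, αGlu 1 lies at 0.07 and αGlu 2 and 3 at -1.38 and -1.57, and for Ctsf all 3 αGlu libraries lie below all 3 Ctr libraries.

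Among the cysteine endopeptidases, Ctss is the one that completes invariant chain cleavage in antigen-presenting cells and stays active at neutral pH. Its level was 11960, 15560 and 16180 CPM in Ctr 1, 2 and 3 (CPM on TMM-adjusted library sizes), and 13840, 10210 and 8600 CPM in αGlu 1, 2 and 3. αGlu 2 and 3 were below every Ctr library and αGlu 1 lay between Ctr 1 and Ctr 2, so the groups overlapped. With all libraries the log2 fold change was -0.42 ± 0.31 (SE, adjusted p = 0.401, edgeR's quasi-likelihood test). Without αGlu 1 it was -0.64 ± 0.17 (adjusted p = 0.0282). Ctss lies at chr3:95526786-95556403 (GRCm38, plus strand), where its neighbour is Ctsk at chr3:95499256-95509362 on the same strand, 17423 bases away with 0 genes between.

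Ctsk is best known as the collagen-degrading cathepsin of osteoclasts. Its level was 93.86, 183.8 and 113.0 CPM in Ctr 1, 2 and 3, and 60.97, 94.22 and 48.89 CPM in αGlu 1, 2 and 3. Only αGlu 2 reached the Ctr range, where it exceeded Ctr 1 by a small margin. The fitted log2 fold change was -0.94 ± 0.34 (adjusted p = 0.180 with edgeR, and 0.0692 with DESeq2). Without αGlu 1 it was -0.87 ± 0.37 (adjusted p = 0.111). Among the αGlu libraries Ctsk was highest in αGlu 2, whereas its neighbour Ctss was highest in αGlu 1.

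Since Ctsk is also a marker of osteoclasts and multinucleated giant cells, the markers of those cells are given beside it. Of 12 markers listed, 10 passed the filter, 0 were called by edgeR and 4 did not overlap, all lower in αGlu. Over all genes, 30.2% did not overlap (15.9% lower). The summed level of the 12 markers was 812.2 to 958.8 CPM in Ctr and 663.7 to 816.2 CPM in αGlu. Its largest part was Clcn7, at 343.1 to 432.3 CPM in Ctr and 337.7 to 490.1 CPM in αGlu. The sum therefore says little about the scarcer markers. Calcr, the calcitonin receptor, had 0 reads in all libraries, and Oscar was at most 0.167 CPM. The fusion gene Ocstamp was at 85.04, 74.69 and 57.21 CPM in Ctr, against 5.219, 0.1259 and 0.1467 CPM in αGlu (log2 fold change of -5.49 ± 1.26, adjusted p = 0.156 with edgeR, 0.00831 with DESeq2). Dcstamp, another fusion gene, was at 39.07 to 50.07 CPM in Ctr, against 8.545, 0.2204 and 0.2201 CPM in αGlu. The log2 fold change of Ostm1, a subunit of the lysosomal chloride transporter, was -0.40 ± 0.15 (adjusted p = 0.189), and that of its partner Clcn7, the most abundant gene of the list, was 0.07 ± 0.17 (adjusted p = 0.808). Other markers lay on the higher side, so that 4 of the 10 had a positive value, against 6200 of all 11933 genes tested. The log2 fold change was 1.05 ± 0.47 for Src (adjusted p = 0.224), 1.47 ± 0.84 for Mmp9 (adjusted p = 0.304) and 0.40 ± 0.84 for Car2 (adjusted p = 0.777), which were chosen after their values were seen. Without αGlu 1, edgeR called 4 of the markers lower and 2 higher, Src and Mmp9. Over all genes it then called 25.6% lower and 23.5% higher. The part of these cells in the Ctsk difference was not tested.

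Ctsl is a broad endopeptidase that can also be secreted as a precursor. Its level was 1769, 2451 and 1665 CPM in Ctr 1, 2 and 3, and 2168, 3414 and 2587 CPM in αGlu 1, 2 and 3. αGlu 2 and 3 were above every Ctr library, but αGlu 1 was below Ctr 2. As a log2 fold change, αGlu over Ctr, this was 0.47 ± 0.26 (adjusted p = 0.285 with edgeR), and without αGlu 1 it was 0.61 ± 0.20 (adjusted p = 0.0566). The gene lies at chr13:64359337-64370890, minus strand.

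Ctsf, an endopeptidase with an unusually long propeptide that can process the invariant chain in Mφs, was the one member with separated groups. Its level was 9.177, 6.269 and 7.192 CPM in Ctr 1, 2 and 3, and 4.301, 3.337 and 4.548 CPM in αGlu 1, 2 and 3. Every αGlu library, αGlu 1 included, was below every Ctr library. These values rest on 150 to 202 reads per Ctr library and 75 to 124 per αGlu library. The log2 fold change was -0.89 ± 0.21 (adjusted p = 0.156 with edgeR, 0.0106 with DESeq2), and without αGlu 1 it was -0.94 ± 0.23 (adjusted p = 0.02). Ctsf lies at chr19:4855130-4860918, plus strand.

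Ctsb acts both as an endopeptidase and as a carboxydipeptidase. It had the tightest Ctr values of the list, at 18630, 19310 and 19000 CPM, with a coefficient of variation of 1.80%. In αGlu 1, 2 and 3 it was at 19950, 11900 and 11470 CPM, with a coefficient of variation of 33.1%. αGlu 1 was above every Ctr library and the other αGlu libraries were far below. With all libraries the log2 fold change was -0.39 ± 0.34 (adjusted p = 0.466 with edgeR), and without αGlu 1 it was -0.70 ± 0.11 (adjusted p = 0.0032). The gene lies at chr14:63122462-63145923, plus strand.

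None of the exopeptidases Ctsc, Ctsh and Ctsz lay below the Ctr range in αGlu 2 or 3. Ctsc, the dipeptidyl peptidase that activates granule serine proteases, was at 137.7, 137.9 and 204.8 CPM over Ctr 1, 2 and 3, against 187.1, 390.2 and 426.0 CPM over αGlu 1, 2 and 3. αGlu 2 and 3 were about level with each other and above every Ctr library, and αGlu 1 was below Ctr 3. The fitted log2 fold change was 1.06 ± 0.35, a ratio of 2.09 (adjusted p = 0.164 with edgeR, 0.0362 with DESeq2). Without αGlu 1 it was 1.35 ± 0.19 (adjusted p = 0.00245). Ctsc lies at chr7:88278085-88310888, plus strand.

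Neutrophils are rich in Ctsc, so their markers are given here. Their summed level was 107.6 to 159.8 CPM in Ctr and 186.5 to 608.9 CPM in αGlu. Nearly all of it was Csf3r, a receptor that some Mφs also carry, at 102.6 to 158.1 CPM in Ctr and 183.4 to 607.5 CPM in αGlu. Only 3 of the 10 markers passed the filter. Without αGlu 1 edgeR called 2 markers higher and 3 lower, against 23.5% and 25.6% of all genes. The higher ones were Csf3r and S100a8. S100a8 was at 0.9086, 0.7523 and 0.5104 CPM in Ctr and 0.5735, 2.109 and 1.32 CPM in αGlu. The lower ones, Mpo, S100a9 and Ngp, were also at low levels. Mpo was at 1.545, 2.591 and 0.4176 CPM in Ctr and 1.663, 0.09444 and 0.03668 CPM in αGlu, while S100a9 was at most 0.954 CPM and Ngp at most 1.63 CPM, with 0 reads of Ngp in αGlu 2 and 3. Ly6g had 0 reads, the granule protease genes Elane and Prtn3 were at most 0.227 CPM, and Camp was at most 0.0944 CPM. Ctsg, 1 of the granule proteases that Ctsc activates, was at most 0.251 CPM and did not pass the filter. The part of such cells in the Ctsc difference was not tested further.

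Ctsh is an aminopeptidase. It was at 312.3, 375.1 and 406.8 CPM over Ctr 1, 2 and 3, against 427.2, 487.1 and 396.4 CPM over αGlu 1, 2 and 3. αGlu 3 was below Ctr 3, and the other αGlu libraries were above every Ctr library. As a log2 fold change, αGlu over Ctr, this was 0.26 ± 0.15 (adjusted p = 0.297 with edgeR), and without αGlu 1 it was 0.27 ± 0.15 (adjusted p = 0.189). On the deposited TPM scale the groups did not overlap, at 213.6 to 270.4 TPM in Ctr and 289.6 to 346.8 TPM in αGlu. Ctsh lies at chr9:90054152-90076089, plus strand.

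Ctsz, a carboxymonopeptidase, gave the values closest to each other. It was at 2175, 2494 and 2297 CPM over Ctr 1, 2 and 3, against 2308, 2542 and 2210 CPM over αGlu 1, 2 and 3. The groups lay within nearly the same range. The log2 fold change was 0.02 ± 0.16 (adjusted p = 0.945 with edgeR), and without αGlu 1 it was 0.03 ± 0.11 (adjusted p = 0.863). Ctsz lies at chr2:174427493-174439039, minus strand.

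Of the aspartic members, Ctsd is the major lysosomal aspartic protease and it also helps to activate cysteine cathepsins. Its level was 13250, 13460 and 12460 CPM in Ctr 1, 2 and 3, and 13680, 5015 and 4385 CPM in αGlu 1, 2 and 3. αGlu 1 was above all Ctr libraries, whereas αGlu 2 and 3 were far below them. The coefficient of variation was 4.02% in Ctr and 67.5% in αGlu. With all libraries the log2 fold change was -0.76 ± 0.49 (adjusted p = 0.349 with edgeR), and without αGlu 1 it was -1.48 ± 0.12 (adjusted p = 0.000292).

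Ctsd lies at chr7:142375911-142388038, minus strand, where the gene model Gm49369 overlaps it on the same strand. In all, 32.4% of the 50-base stretches of Ctsd transcripts occur in Gm49369 too, so reads may be divided between them, and the authors' treatment of such reads is not given in the sources used here. Gm49369 took a read count equal to 9.64% to 11.8% of that of Ctsd. It was at 1429, 1455 and 1340 CPM over Ctr 1, 2 and 3, against 1319, 591.8 and 424.2 CPM over αGlu 1, 2 and 3. With the reads of both models summed, the log2 fold change was -0.77 ± 0.49 (adjusted p = 0.345 with edgeR).

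Ctse, an aspartic protease of endosomes in immune and gastric cells, was scarce, at 50 to 94 reads per Ctr library and 19 to 121 per αGlu library. Its level was 2.271, 3.051 and 4.362 CPM in Ctr 1, 2 and 3, and 6.940, 0.5981 and 0.8436 CPM in αGlu 1, 2 and 3. αGlu 1 held the highest value of the series and αGlu 2 and 3 the lowest. The fitted log2 fold change was -0.25 ± 0.95 (adjusted p = 0.878 with edgeR). It was -2.17 ± 0.39 without αGlu 1 (adjusted p = 0.00611), but 0.25 without αGlu 2, 0.20 without αGlu 3 and 0.04 without Ctr 3, so its sign depended on the libraries used. The gene lies at chr1:131638306-131675505, plus strand.

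**Figure D3:**
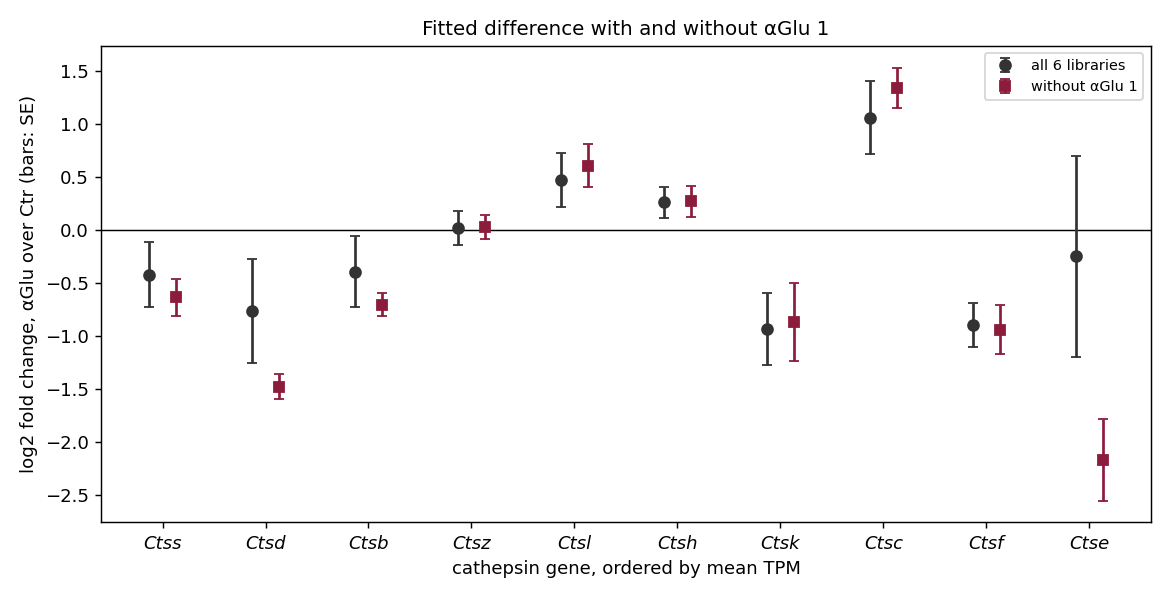
Log2 fold change (αGlu over Ctr) of each cathepsin gene from edgeR's quasi-likelihood fit, with bars showing the standard error, for all 6 libraries (circles) and without αGlu 1 (squares). Leaving out αGlu 1 moves Ctsd from -0.76 to -1.48 and Ctse from -0.25 to -2.17, and leaves Ctsz at 0.03.

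The mix of cathepsin messengers also differed between libraries. On the TPM scale, the summed cathepsins took 6.64%, 4.53% and 4.02% of all transcripts in αGlu 1, 2 and 3. The mean was 5.06% ± 1.39 (SD, n = 3) in αGlu and 6.49% ± 0.432 in Ctr. αGlu 1 was within the Ctr range and αGlu 2 and 3 were below it. Of the summed TPM, Ctss took 45.3% to 53.2% in Ctr and 47.6% to 53.2% in αGlu. Ctsd took 28.96%, 25.2% and 23.7% in Ctr 1, 2 and 3, and 27.2%, 15.1% and 15.3% in αGlu 1, 2 and 3, so its share of the cathepsin pool was lower in αGlu 2 and 3 as well as its level. The share of Ctsb was similar in both groups, at 14.6% ± 1.04 in Ctr and 14.9% ± 0.897 in αGlu. The share of Ctsz was 7.11% to 7.76% in Ctr, and 7.48%, 12.5% and 12.6% in αGlu 1, 2 and 3, while its level differed little. Ctsl took 1.15% to 1.66% in Ctr, and 1.56%, 3.72% and 3.26% in αGlu 1, 2 and 3.

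**Figure D4:**
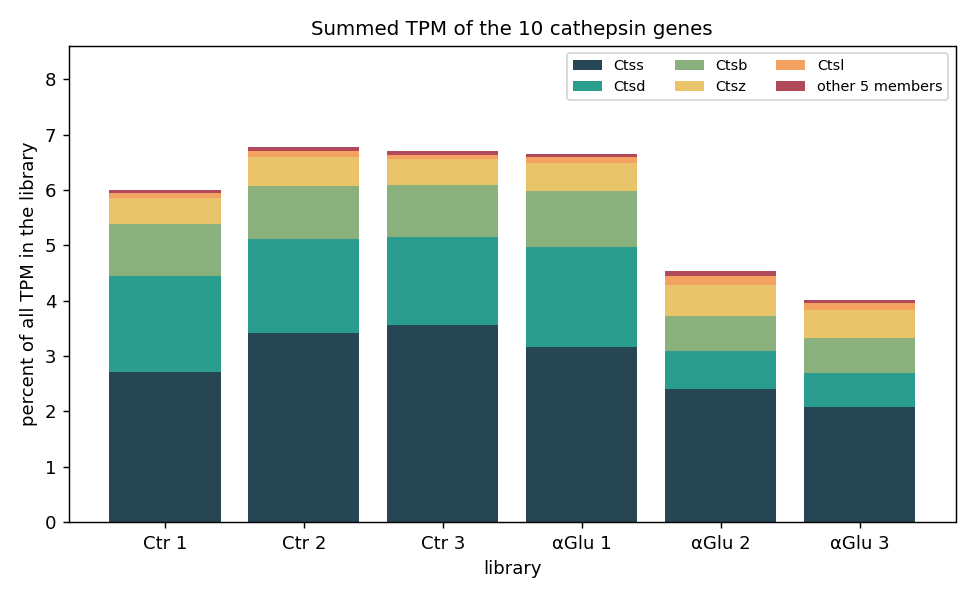
Summed TPM of the 10 cathepsin genes as a percent of all TPM in each library, stacked by gene. The bars reach 5.99% to 6.77% in Ctr and 6.64%, 4.53% and 4.02% in αGlu 1, 2 and 3, with the Ctsd segment smaller in αGlu 2 and 3.

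Other proteases of the compartment were compared with the same fit. Of 15 further proteases listed (other cathepsins, Napsa and legumain), 9 had no read in any library and 4 passed the filter. With edgeR 0 of these 4 were called, and 2 had an unadjusted p under 0.05, against 24.7% of all genes. Legumain (Lgmn), an asparaginyl endopeptidase that processes cathepsins, was at 1557, 2181 and 1971 CPM over Ctr 1, 2 and 3, against 2427, 2622 and 2982 CPM over αGlu 1, 2 and 3, with no overlap between groups. Its log2 fold change was 0.49 ± 0.20 (adjusted p = 0.197). Napsa, an aspartic protease, was at 110.4 to 175.9 CPM in Ctr, against 125.0, 73.76 and 68.33 CPM over αGlu 1, 2 and 3 (a log2 fold change of -0.78 ± 0.30, adjusted p = 0.187). The serine carboxypeptidase Ctsa was below the Ctr range in αGlu 2 and 3 and within it in αGlu 1, with 1409 to 1540 CPM in Ctr, 1514 CPM in αGlu 1, and 988.9 and 901.1 CPM in αGlu 2 and 3. The fit gave a log2 fold change of -0.39 ± 0.23 (adjusted p = 0.311). For Ctso the log2 fold change was -0.05 ± 0.09 (adjusted p = 0.771), and Ctsw was at most 0.063 CPM.

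The cathepsin inhibitors Cst7 and Serpina3g were far higher in the αGlu libraries, although no inhibitor passed edgeR's threshold. Of 19 listed, 15 were in the table, 6 passed the filter, and 7 had no read. Of the 6, edgeR called 0 and 3 had an unadjusted p under 0.05, whereas 3 were called by DESeq2, all higher in αGlu. Over all genes these shares were 0%, 24.7% and 15.9% (7.77% higher). Groups did not overlap for 2 of the 6, both higher in αGlu, against 30.2% of all genes (14.2% higher). The median log2 fold change of the 6 was 1.64. Cst7 encodes cystatin F, a cystatin of the endolysosome that inhibits Ctsc. It was at 3.862, 4.848 and 6.078 CPM over Ctr 1, 2 and 3, against 23.86, 123.7 and 127.7 CPM over αGlu 1, 2 and 3. All 3 αGlu libraries were above all Ctr libraries, and the log2 fold change was 4.22 ± 0.69 (adjusted p = 0.149 with edgeR, 1.42e-09 with DESeq2). Without αGlu 1 it was 4.67 ± 0.16 (adjusted p = 1.84e-05).

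Serpina3g, a serpin that inhibits cysteine cathepsins, was at 2.317 to 5.011 CPM in Ctr, against 16.12, 148.8 and 164.3 CPM over αGlu 1, 2 and 3 (a log2 fold change of 4.92 ± 0.94, adjusted p = 0.149). Ctla2b, which resembles a cathepsin propeptide, had a log2 fold change of 2.33 ± 0.89 (adjusted p = 0.189) with overlapping groups. Neither of the abundant inhibitors had a higher mean in αGlu. Cst3, the secreted cystatin C, was at 946.0 to 1089 CPM in Ctr, against 995.3, 395.7 and 364.1 CPM over αGlu 1, 2 and 3. Its log2 fold change was -0.77 ± 0.41 (adjusted p = 0.283), and -1.39 ± 0.11 without αGlu 1 (adjusted p = 0.000269). For the cytosolic inhibitor Cstb it was -0.13 ± 0.12 (adjusted p = 0.512).

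Genes that deliver cathepsins to the lysosome lay mostly on the lower side by small amounts. Of 16 sorting genes, all passed the filter, 15 had a negative log2 fold change, 4 did not overlap (all lower) and 0 were called, with 1 at an unadjusted p under 0.05. The median was -0.18. With library size alone as the scale, 11 of the 16 were negative. Over all 11933 genes tested, 5733 were negative with TMM scaling and 4524 with library size alone. Nagpa, which uncovers the mannose 6-phosphate tag, was at 67.14 to 77.36 CPM in Ctr and 52.76 to 61.83 CPM in αGlu (log2 fold change of -0.36 ± 0.10, adjusted p = 0.157). Values were -0.50 ± 0.23 (adjusted p = 0.231) for the receptor Igf2r and -0.22 ± 0.10 (adjusted p = 0.231) for Gnptab, which starts the tag. Psap, a sphingolipid activator precursor that binds Ctsd precursor and the most abundant gene of the list, was at 20320 to 24130 CPM in Ctr, against 20550, 12970 and 10880 CPM over αGlu 1, 2 and 3. Sort1, a sorting receptor chosen after its values were seen, was at 98.18 to 183.6 CPM in Ctr, against 87.63, 10.23 and 9.5 CPM over αGlu 1, 2 and 3 (a log2 fold change of -1.84 ± 0.94, adjusted p = 0.265). Without αGlu 1, edgeR called 9 of the 16 lower and 1 higher. Over all genes the shares were 30.2% without overlap (15.9% lower), 24.7% at an unadjusted p under 0.05 and 49.1% called without αGlu 1 (25.6% lower). Against the shares for both directions, the first 2 counts lie below the background. On the lower side alone, the 4 without overlap and the 9 called lie above it.

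The subunits of the proton pump showed a like tilt. Of 19 listed, 18 passed the filter, 17 had a negative log2 fold change, 7 did not overlap (all lower) and 0 were called by edgeR, although 4 had an unadjusted p under 0.05. Calls by DESeq2 were 3, all lower, and those by edgeR without αGlu 1 were 14 lower and 1 higher. The corresponding shares of all genes were 30.2% without overlap (15.9% lower) and 24.7% at that unadjusted p. They were 15.9% by DESeq2 (8.13% lower) and 49.1% without αGlu 1 (25.6% lower). The median was -0.27, and the number with a negative value was 14 to 17 over the scaling factors tried. Over all 11933 genes tested that number was 4524 to 5808, lowest with library size alone. As a log2 fold change, αGlu over Ctr, this was -0.31 ± 0.10 (adjusted p = 0.163) for Atp6v1h, -0.86 ± 0.30 (adjusted p = 0.177) for Atp6v0a1 and -0.30 ± 0.11 (adjusted p = 0.181) for Atp6v0e. Atp6v0d2, a subunit of osteoclasts and Mφs and the most abundant of the list, was far below Ctr in αGlu 2 and 3 and within the Ctr range in αGlu 1. It was at 2369, 2390 and 2451 CPM over Ctr 1, 2 and 3, against 2384, 803.3 and 645.0 CPM over αGlu 1, 2 and 3 (a log2 fold change of -0.91 ± 0.51, adjusted p = 0.298).

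The other partners of Ctss and Ctsf in MHC class II loading were all on the lower side, as were 5733 of all 11933 genes tested. All 6 passed the filter with a median log2 fold change of -0.53, and 5 did not overlap. EdgeR called 0 of them, while 5 had an unadjusted p under 0.05. The DESeq2 calls numbered 5, all lower. Among all genes these shares were 30.2% (15.9% lower), 24.7% (11.9% lower) and 15.9% (8.13% lower). Cd74, which encodes the invariant chain, was at 5832, 7308 and 7426 CPM over Ctr 1, 2 and 3, against 5056, 4735 and 4531 CPM over αGlu 1, 2 and 3. Here αGlu 1 was below every Ctr library, as it was not for Ctss. The log2 fold change was -0.52 ± 0.21 (adjusted p = 0.2). It was -0.51 ± 0.09 (adjusted p = 0.149) for H2-DMb1 and -0.68 ± 0.18 (adjusted p = 0.156) for H2-DMa, which form the peptide-exchange protein H2-DM. For Ifi30, a lysosomal thiol reductase, it was -0.53 ± 0.16 (adjusted p = 0.160).

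Of the 5 factors that regulate lysosomal genes, edgeR called 0, with 1 at an unadjusted p under 0.05, against 24.7% of all genes. Tfec, the MiT family member that is largely restricted to myeloid cells, was at 48.61, 58.26 and 68.21 CPM over Ctr 1, 2 and 3, against 73.35, 179.5 and 194.0 CPM over αGlu 1, 2 and 3. Its groups did not overlap, and the log2 fold change was 1.35 ± 0.38 (adjusted p = 0.158 with edgeR, 0.011 with DESeq2). Tfeb, a main activator of lysosomal genes, was at 79.57 to 94.18 CPM in Ctr, against 86.72, 21.78 and 21.57 CPM over αGlu 1, 2 and 3. Its log2 fold change was -1.01 ± 0.58 (adjusted p = 0.302), and -2.01 ± 0.10 without αGlu 1 (adjusted p = 4.64e-05). For Mitf it was 0.11 ± 0.08 (adjusted p = 0.394). The median of the list was -0.01 and its sign turned with the scaling (0.08 with library size alone).

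**Figure D5:**
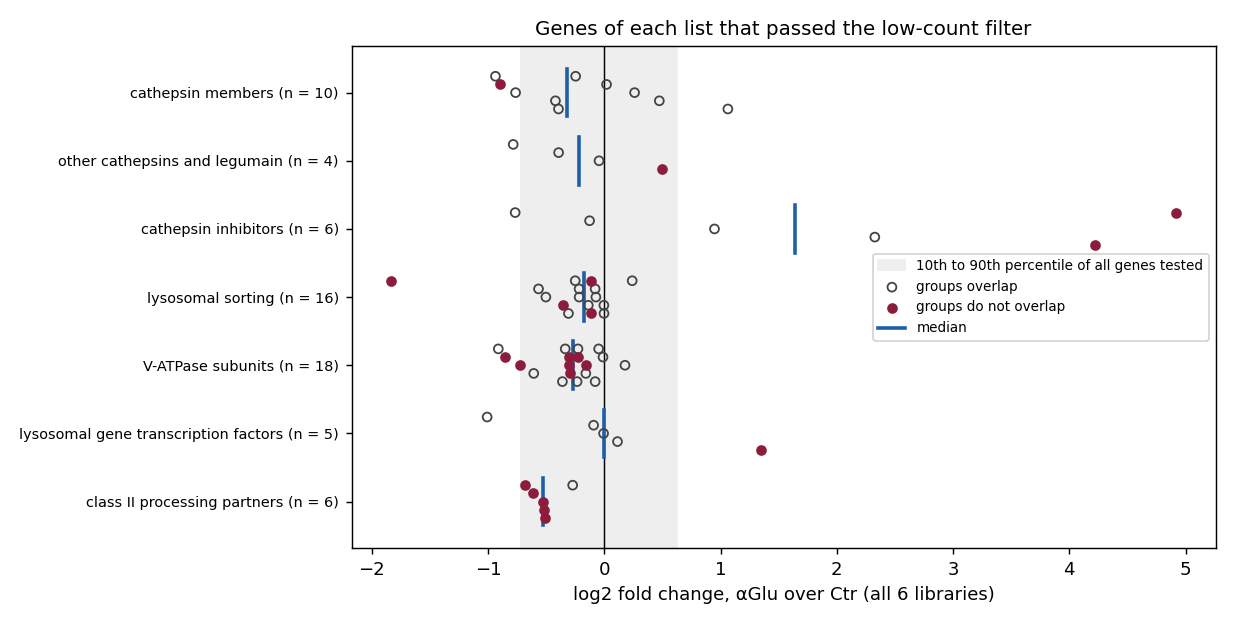
Log2 fold change (αGlu over Ctr, all 6 libraries) of each gene that passed the low-count filter in the cathepsin list and 6 related lists, where filled points mark genes whose groups do not overlap, blue bars mark the median of a list, and grey shading spans the 10th to the 90th percentile of all genes tested (-0.71 to 0.63). Cst7 and Serpina3g lie at 4.22 and 4.92, and 5 of the 6 class II processing partners are filled points between -0.68 and -0.51.

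Some members share their locus with other genes. Besides Gm49369 at Ctsd, Fdft1, a squalene synthesis gene, lies opposite to Ctsb, Nelfcd opposite to Ctsz, Gm26522 opposite to Ctsc and Gm47123 opposite to Ctsl, each touching an exon. The library kit keeps strand, but whether the counting used it is not given in the sources used here. Reads from such partners may not be told apart. Fdft1 was at 16.17 to 29.8 CPM in Ctr and 7.456 to 9.72 CPM in αGlu, against at least 11470 CPM for Ctsb. The pseudogene Gm49230 overlaps Ctsl on the same strand, and 6.46% of the 50-base stretches of Ctsl transcripts occur in other genes, as 0.448% do for Ctsc. For the 7 members other than Ctsc, Ctsd and Ctsl, this share was 0%.

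Promoter letters were searched for motifs of transcription factors. These were CACGTG, the core of the element bound by Tfeb and its relatives, and the Stat6 motif (TTC, 4 bases, GAA), bound by the main effector of IL-4. GAGGAAG, a core bound by the myeloid factor PU.1, was searched as well. Windows ran from 250 bases before to 50 bases after the RefSeq start (GRCm38.p6) and both strands were searched. The table gave windows for 7 of the 10 members, and those of Ctsb, Ctse and Ctsh were not analysed here. CACGTG occurred in 3 of the 7 windows, of Ctsd, Ctsf and Ctsl, and in 7.15% of all 32851 windows. The Stat6 motif occurred in 0 of the 7 and in 6.95% of all. GAGGAAG occurred in 3, of Ctsc, Ctsk and Ctss, and in 13.6% of all. No member window held more than 1 of these motifs. A match is a description of letters only. The stretches around the CACGTG matches are printed because 3 members hold them, with the match in capitals. They begin 245 and 98 bases before the start for Ctsd, 79 for Ctsf and 236 for Ctsl, and the printed runs are on the strand of the gene, at chr7:142388048-142388077 and chr7:142387908-142387937 (minus), chr19:4855074-4855103 (plus) and chr13:64370739-64370768 (minus). The outermost GENCODE start lies 211 bases upstream of the RefSeq start for Ctsd and 370 for Ctsl, so the proximal match of Ctsd and the match of Ctsl lie inside the gene spans given above.
Ctsd, distal: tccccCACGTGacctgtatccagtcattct
Ctsd, proximal: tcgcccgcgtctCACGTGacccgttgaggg
Ctsf: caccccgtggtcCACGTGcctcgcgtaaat
Ctsl: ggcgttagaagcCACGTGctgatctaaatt
Without αGlu 1, Ctsd and Ctsf were lower in αGlu and Ctsl was higher. The part of these matches in the differences was not tested.

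The neighbours Ctsk and Ctss are printed for GAGGAAG, which reads CTTCCTC on the other strand. The matches begin 233 and 59 bases before the start of Ctsk and 1 base before that of Ctss. The printed runs lie at chr3:95498966-95498995 and chr3:95499140-95499169 for Ctsk and at chr3:95526774-95526803 for Ctss, all on the plus strand.
Ctsk, distal: tcagacattttGAGGAAGaatggagacaac
Ctsk, proximal: aaatgtgtgtcCTTCCTCcctaacccctcc
Ctss: atgaaagttcaCTTCCTCattgtggatgct
Both genes had lower means in αGlu, while Ctsc, which holds 2 matches as well, had the higher mean in αGlu. Any role of the matches in this was not tested.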

How the data were processed

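RNA-seq of M2 Mφs comprised 3 Ctr and 3 αGlu libraries, grouped by their titles. The authors made stranded mRNA libraries and used the QIAGEN RNA-seq Analysis Portal, with GRCm38, for annotation and normalization. The aligner and the treatment of reads shared between genes are not given in the sources used here. The deposited counts are whole reads per gene, without normalization. The deposited TPM values are scaled by length and depth by the authors. Further deposited columns (RPKM and normalized CPM) were not used.

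The counts were filtered with filterByExpr (minimum count 10, minimum total 15), scaled by TMM, and tested in R 4.3.3 with edgeR 4.0.16 (quasi-likelihood, group only, two-sided, Benjamini-Hochberg over all genes tested, called at an adjusted p under 0.1). Each standard error is the log2 fold change over the root of its F statistic. CPM uses TMM-adjusted library sizes, and log2 CPM a prior count of 2. Scripts were tested on simulated data. Per the study's methods, replicates of primary cells are preparations from different animals, but whether same-numbered Ctr and αGlu libraries share an animal is not given in the sources used here.

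Levels between genes were compared by TPM. Gene positions are those of GENCODE M21 on GRCm38, promoter windows come from RefSeq (GRCm38.p6), and oligonucleotide sequences from the study's list of sequences. Alternatives were DESeq2 1.42.0, limma-voom (limma 3.58.1), RLE, upper-quartile or no scaling factors, other filters and thresholds, robust estimation, the replicate number as a block, reads instead of TPM for shares, and each library left out. Adding Gm49369 reads to Ctsd was chosen after seeing the data. All 10 members are named. Of each related list, the 3 genes with the smallest p, the most abundant gene and some genes fixed by name are given, and others are said to be chosen after their values were seen. The members and lists were chosen with earlier results of these data known.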

Additional observations from a re-analysis of the deposited data

How the results depend on the processing

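The calls depended most on the tool and on αGlu 1. Against 0 genes and 0 members called by edgeR, DESeq2 called 2179 genes and 3 members. Leaving out 1 library at a time gave 0 to 6055 genes and 0 to 7 members, and the upper values arose only without αGlu 1. Limma-voom, other scaling factors, other low-count filters, robust estimation and other thresholds left 0 members called. A replicate block in the edgeR fit gave 17 genes and 0 members, so the block changed no member's call. With it, standard errors moved both ways, from 0.34 to 0.14 for Ctsk and from 0.34 to 0.43 for Ctsb. After removal of the group means, Ctr and αGlu libraries with the same number correlated across genes at 0.0764, 0.0646 and 0.154. These values are weak, but every library correlated best with its own number. The numbers were not taken as pairs in the main fit, and whether they mark pairs is not settled here. Beside the 1 member whose groups did not overlap (Ctsf), there were 2 with RLE factors (Ctsk added), and 2 with library size alone or deposited TPM (Ctsh added). Leaving out 1 library, which can only keep or raise this count, gave 2 to 7. There were 3 without Ctr 1 or without Ctr 3, 2 without Ctr 2, αGlu 2 or αGlu 3, and 7 without αGlu 1. Of all genes, 30.2% did not overlap with all 6 libraries and 65.8% without αGlu 1. The shares of all genes under the other settings were not computed. The sign of the log2 fold change turned for Ctsz without Ctr 1 (-0.02) and without αGlu 2 (-0.04), within a range over libraries left out of -0.037 to 0.069. It turned for Ctse without Ctr 3 (0.04), without αGlu 2 (0.25) and without αGlu 3 (0.20), within a range of -2.17 to 0.25. The cause was not tested. By reads and not per length, Ctsb took 36.9% and Ctss 28.2% of the members' total, against 14.8% and 50.2% by TPM. Ctse and Ctsf rest on few reads, which limits their precision.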
